A study of Mus musculus with 3 samples.

Results

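The 6 imprinted genes described here lie on mouse chromosome 7 and were chosen by name: H19, Igf2, Cdkn1c, Kcnq1ot1, Phlda2 and Slc22a18. All 6 were listed in each of the 3 count tables, among 22439, 23371 and 24229 genes (27886 genes in at least 1 table). The cells were male F1 mouse cells of C57BL/6 x CAST/EiJ background, and the values are the total of both parental alleles. Embryonic stem cells (mESC, 215 cells) were kept in 2i medium with Lif, which holds them in a naive pluripotent state. Cardiac precursor cell cultures (CPCC, 175 cells) came from dissociated embryoid bodies that were passaged in an enrichment medium with Egf and Fgf2. Cardiac bodies (CB, 232 cells) were floating aggregates in ascorbic acid medium from which beating bodies were picked, and they carry the label of mature cardiac cells. The labels give no culture times. All 3 groups share the same cross, with C57BL/6J mothers and CAST/EiJ fathers per the study's methods, so no reciprocal cross separates parent from strain here. There was 1 sample per group, so no difference between cultures has a replicate check. The mESC sample is titled as a triplicate, and the study describes 3 clones at each experiment point, so a sample may hold several clones. The sequencing pools, 3 in mESC, 2 in CPCC and 3 in CB, are shown as the spread within a culture and are not replicates, because no label ties a pool to a clone.

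Imprinted genes are transcribed mainly from the maternal or mainly from the paternal chromosome, according to methylation marks set in the germ line. In the H19 and Igf2 domain, an unmethylated control region on the maternal chromosome binds CTCF and blocks shared enhancers from reaching Igf2, so that H19 is read there, while the methylated paternal copy allows Igf2 to be read. In the neighbouring Kcnq1 domain the long RNA Kcnq1ot1 is read from the paternal chromosome and silences nearby genes in cis, among them Cdkn1c, Phlda2 and Slc22a18, which are known as maternally expressed. Igf2 is a fetal growth factor, H19 is an abundant fetal noncoding RNA, Cdkn1c is a cyclin-dependent kinase inhibitor that restrains growth, Phlda2 is a pleckstrin homology domain protein that limits placental growth, and Slc22a18 is a membrane transporter. In the embryo H19 and Igf2 are known for high levels in mesoderm and endoderm, and both are low in most adult tissues.

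In the GRCm38 annotation (GENCODE M21) the 6 start sites lie within 925 kb of chromosome 7. H19 lies at chr7:142575529-142578143 on the minus strand, and its exons also hold the miRNA gene Mir675. Igf2 lies at chr7:142650766-142666816 on the minus strand, with its start 88.7 kb from that of H19, and its span also holds Mir483 and, on the other strand, Igf2os. Kcnq1ot1 covers chr7:143203458-143296549 on the minus strand as a single exon inside Kcnq1, 718 kb from the H19 start. Cdkn1c lies at chr7:143458339-143461050 on the minus strand and is overlapped by the antisense gene Gm44732. Slc22a18 lies at chr7:143473736-143499334 on the plus strand. Phlda2 lies at chr7:143501545-143503150 on the minus strand, 925 kb from the H19 start. The use of strand in counting is not given in the sources used here, so reads of H19, Igf2, Cdkn1c and Kcnq1ot1 could not be told apart from those of the genes they overlap. Kcnq1 was listed in CB only, at 0.417 CPM, the unit used below for counts scaled to a fixed total per sample, pool or cell.

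Sequences of RefSeq (GRCm38.p6) are shown for the small RNAs cut from H19, the gene of this region with the widest range, and for the start sites of 2 Kcnq1 domain genes, Kcnq1ot1, which was highest in CB, and Phlda2, which was highest in CPCC. The mature miRNAs lie at chr7:142577112-142577133 and chr7:142577078-142577099, and the libraries of polyadenylated RNA did not measure them. Capitals mark the seed, bases 2 to 8, and neither seed was shared with another of the 1679 mature sequences in the table.
mmu-miR-675-5p: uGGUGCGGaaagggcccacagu
mmu-miR-675-3p: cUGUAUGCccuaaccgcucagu
The windows of 250 bases before to 50 after a start site were found for 4 of the 6 genes. That of Kcnq1ot1 (chr7:143296498-143296797, minus strand) held 3 matches to CCAAT, searched on both strands as CCAAT or ATTGG and given in capitals, and 9 CpG. That of Phlda2 (chr7:143502475-143502774, minus strand) held 1 match and 26 CpG, and it lies around a RefSeq start inside the gene span given above, so it does not hold the outer start of the GENCODE annotation. Of 32851 windows in the table, 37.4% held at least 1 match and 3.21% as many as Kcnq1ot1, and the median was 7 CpG per window.
Kcnq1ot1: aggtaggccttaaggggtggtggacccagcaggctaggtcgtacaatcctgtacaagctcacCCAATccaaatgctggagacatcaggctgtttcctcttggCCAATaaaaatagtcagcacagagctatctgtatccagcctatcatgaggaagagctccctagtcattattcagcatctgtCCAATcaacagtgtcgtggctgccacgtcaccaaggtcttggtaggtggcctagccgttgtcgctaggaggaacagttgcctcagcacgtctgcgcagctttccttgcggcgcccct
Phlda2: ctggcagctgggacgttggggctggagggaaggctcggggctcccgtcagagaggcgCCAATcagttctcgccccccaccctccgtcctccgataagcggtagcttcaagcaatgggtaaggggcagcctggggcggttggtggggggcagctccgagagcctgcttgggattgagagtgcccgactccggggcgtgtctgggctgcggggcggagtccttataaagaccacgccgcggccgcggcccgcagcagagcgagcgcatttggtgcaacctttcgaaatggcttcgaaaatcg
A match to these letters is a description of the window and not a measured binding site.

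Estimated counts summed to 351190067 in mESC, 275992310 in CPCC and 338221926 in CB, and the median cell had 1528316, 1437414 and 1397869 counts. Pool medians ran from 804581 in CB pool 1 to 1855334 in mESC pool 3, and 8 mESC, 1 CPCC and 9 CB cells had under 10000 counts. The cultures were checked against marker lists, given as summed CPM. The 10 pluripotency markers summed to 10764 in mESC, 3322 in CPCC and 175 in CB, where Pou5f1 and Dppa5a were not listed. The CPCC pools differed in several marker lists, with pluripotency at 5575 in pool 1 and 1212 in pool 2, and macrophage markers at 16.9 in pool 1, where C1qa, C1qb, C1qc, Adgre1 and Tyrobp were at 0, and 4382 in pool 2. Fibroblast markers were at 312 in CPCC pool 1, where Lum was at 0, and 2302 in pool 2, and epithelial markers at 1919 and 582. Fibroblast markers summed to 480, 1340 and 9949 CPM in mESC, CPCC and CB, and smooth muscle markers to 3.40, 5728 and 1425. The mESC sums covered only the 6 of 10 fibroblast and 4 of 6 smooth muscle markers listed there. Acta2, at 4176 CPM in CPCC, was not among them. Cardiomyocyte markers summed to 50.1, 133 and 507 CPM in mESC, CPCC and CB, with 8 of the 10 listed in mESC. For CB over CPCC 9 of the 10 were at least 2-fold higher and 1 lower (median log2 ratio 2.78), beside 17.0% and 7.54% of all genes. Their sum in CB pool 3, at 17.5 CPM, lay under both CPCC pools (90.9 and 173) and all mESC pools (38.8 to 73.8). In CB, endothelial markers summed to 538, epithelial markers to 3463, mesothelial markers to 183 and endoderm markers to 739. The CB pools differed in make-up. Pool 2 had 1021 CPM of fibroblast markers, against 14966 in pool 1 and 15969 in pool 3, and it had the most endothelial (1273, against 96.2 and 56.0), endoderm (1872, against 38.2 and 2.41), cardiomyocyte (1150, against 273 and 17.5) and cell cycle markers (2525, against 1337 and 304). Myh6, the cardiac alpha-myosin heavy chain gene of cardiomyocytes, was detected in 14 of 232 CB cells (6.03%, 10.2 CPM) and in 18 of 175 CPCC cells (10.3%, 0.558 CPM), and was at 0 in CB pool 3.

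H19 separated the 3 cultures most widely. It was nearly silent in mESC, uneven between CPCC cells and present in almost every CB cell. Its level, the summed counts of a culture scaled to its total, was 0.122 CPM in mESC, with a 95% Poisson interval of 0.089 to 0.165. It was 365 CPM in CPCC (363 to 367) and 2654 CPM in CB (2648 to 2659). These intervals, like those of the shares of cells, cover counting error only, since PCR copies of a molecule could not be told apart. By pool the level was 0.136, 0.066 and 0.184 CPM in mESC, 73.7 and 638 in CPCC, and 3612, 2685 and 2209 in CB. The pools of the 3 cultures did not overlap. The log2 ratio of (CPM + 1), a scale that understates the change of low genes, was 8.35 for CPCC over mESC (counting interval 8.29 to 8.40), 11.21 for CB over mESC and 2.86 for CB over CPCC, and each ratio had the same sign in all pairs of pools.

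**Figure D1:**
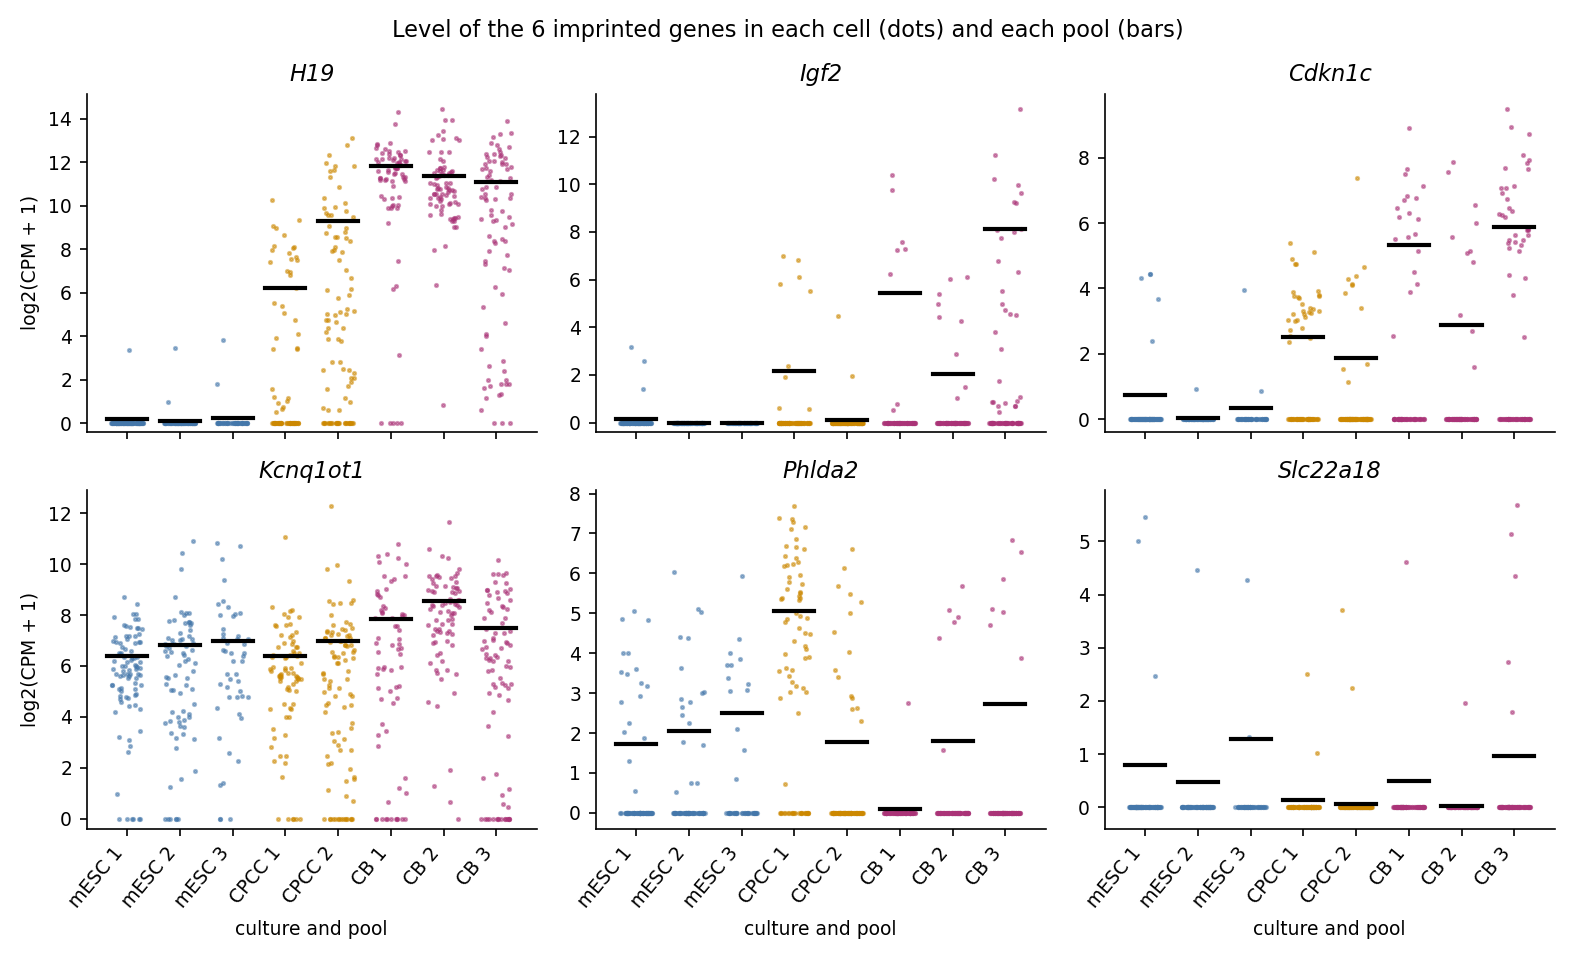
Each dot is 1 cell and each bar the summed level of a sequencing pool, as log2(CPM + 1), for 215 mESC, 175 CPCC and 232 CB cells. H19 sits at 0 in nearly all mESC and above 100 CPM in most CB cells of each pool, Kcnq1ot1 is present throughout, and Phlda2 stands highest in CPCC pool 1.

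Detection of H19, taken as 1 or more counts in a cell, was 2.33% of mESC (5 cells, exact Clopper-Pearson interval 0.759 to 5.34%), 59.4% of CPCC cells (104 cells, 51.8 to 66.8%) and 96.6% of CB cells (224 cells, 93.3 to 98.5%). With cells thinned to 430000 counts the shares were 2.59%, 52.2% and 95.7%. This left out the 22 mESC, 18 CPCC and 22 CB cells with fewer counts than that, here and for the other genes. The 8 CB cells without H19 had a median of 333948 counts, against 1483461 in the others. The level within cells differed more than the share, with a median of 2080 CPM among the CB cells with H19 and 71.7 CPM among the CPCC cells with it. The median CB cell held 1865 CPM, with quartiles of 664 and 3914 and a maximum of 22194. The median CPCC cell held 3.19 CPM, with the upper quartile at 180 and a maximum of 8745. At least 100 CPM were reached by 198 of 232 CB cells and 51 of 175 CPCC cells, and by none of the 215 mESC, which allows a share of up to 1.40%. Among CB pools, 61 of 69, 76 of 78 and 61 of 85 cells reached that level, so pool 3 held most of the CB cells with little H19. The median over cells was 3013 CPM in pool 1, 1729 in pool 2 and 870 in pool 3.

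A few cells carried much of the H19 of the CPCC sample. A group of 5 cells held 50% of its counts, against 34 cells in CB. The richest CPCC cell held 20.4% of the counts, lay in pool 2 and had 5203 CPM of endothelial and 3034 CPM of fibroblast markers. Without it the CPCC level was 293 CPM.

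**Figure D2:**
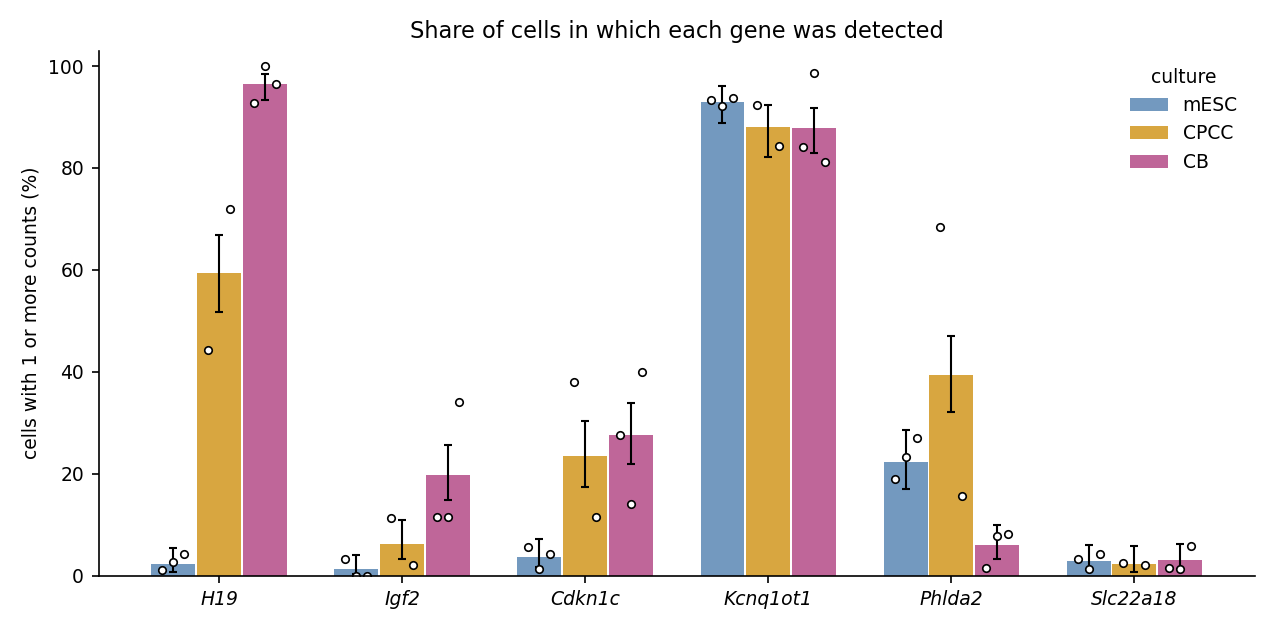
Bars show the share of cells with 1 or more counts of each gene in mESC, CPCC and CB, with exact 95% intervals for counting error, and open circles show the pools. H19 is found in 2.33%, 59.4% and 96.6% of cells, Kcnq1ot1 in 87.9% to 93.0%, and Phlda2 is highest in CPCC, where its pools lie far apart.

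In both CPCC pools, H19 was higher in cells with collagen. It was detected in 53 of 64 cells with Col1a1, a fibrillar collagen gene (82.8%, interval 71.3 to 91.1%), and in 51 of 111 cells without it (45.9%, 36.4 to 55.7%). The summed level was 646 CPM in the cells with Col1a1 and 148 CPM in the others. Within pool 1 the levels were 167 and 45.4 CPM, and within pool 2 they were 812 and 346. Across cells of a pool, the Spearman correlation of H19 with the summed fibroblast markers was 0.43 and 0.52 in pools 1 and 2, and with smooth muscle markers 0.50 and 0.53. With pluripotency markers it was -0.43 and -0.28. These are descriptions over 174 CPCC cells, 79 in pool 1 and 95 in pool 2, and cells that share a culture and pool are not replicates. The correlation of H19 with the counts per cell was 0.02 and 0.09. Cells with Col1a1 made up 17 of 79 cells in pool 1 and 47 of 96 in pool 2, and the part of this make-up in the difference of H19 between the pools was not tested.

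In CB, H19 was found in cells with and without each marker. It was detected in 145 of 149 cells with Col1a1 and 79 of 83 without, in all 14 cells with Myh6, in all 24 cells with the endothelial gene Pecam1, in all 19 cells with the endoderm gene Afp and in 89 of 92 cells with the epithelial gene Epcam. The level differed more than the share. It was 5380 CPM in cells with Pecam1 and 2329 in the others. Of the 24 cells with Pecam1, 21 lay in pool 2, where the levels were 5455 and 1819 CPM, and the correlation with the summed endothelial markers was positive in all 3 pools (0.17, 0.30 and 0.29). With fibroblast markers it was 0.42, 0.08 and 0.50. The genes most like H19 over the 223 CB cells with at least 10000 counts, by the mean of the within-pool correlations among 9923 genes, were Sparc (0.43, pools 0.37 to 0.45), Itm2a (0.37), Col5a2 (0.37), Anxa5 (0.36) and Hand2os1 (0.35). Sparc and Col5a2 encode extracellular matrix proteins and Anxa5 a phospholipid-binding protein.

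Igf2, the other gene of the H19 domain, was at or near 0 in mESC and reached a high level in CB through few cells. The level was 0.037 CPM in mESC (13 counts, interval 0.020 to 0.063), 1.74 CPM in CPCC (1.59 to 1.90) and 129 CPM in CB (128 to 130). By pool it was 0.118, 0 and 0 CPM in mESC, 3.51 and 0.077 in CPCC, and 42.3, 3.09 and 282 in CB. CPCC pool 1 lay above CB pool 2, so the pools of these cultures overlapped. The part of the markers that separate the CB pools in their Igf2 level was not tested. The log2 ratio was 6.97 for CB over mESC, with 1.87 to 8.14 over pairs of pools, 1.40 for CPCC over mESC and 5.57 for CB over CPCC. Without CPCC pool 1 the ratio of CPCC over mESC was 0.05. Igf2 was detected in 1.40% of mESC (3 cells), 6.29% of CPCC cells (11 cells, interval 3.18 to 11.0%) and 19.8% of CB cells (46 cells, 14.9 to 25.5%). Thinned cells gave 1.04%, 4.46% and 17.1%. The CB cells with Igf2 were somewhat deeper, with a median of 1594241 counts against 1329314.

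A single CB cell of pool 3 held 58.1% of all Igf2 counts of that culture, at 9103 CPM. Its fibroblast markers summed to 31319 CPM and its pluripotency markers to 322. Without this cell the CB level was 54.4 CPM, and 3 cells together held 77.5% of the counts. At least 100 CPM of Igf2 were found in 5 of 69, 0 of 78 and 12 of 85 cells of the CB pools, where 0 of 78 allows a share of up to 3.85%. In CPCC a single cell likewise held 58.3% of the Igf2 counts, and the level without it was 0.731 CPM (log2 ratio to mESC 0.76, also without the richest mESC). In CB, detection of Igf2 did not separate cells with Col1a1 from those without in each pool, with 8 of 60 against 0 of 9 cells in pool 1, 2 of 12 against 7 of 66 in pool 2 and 25 of 77 against 4 of 8 in pool 3. The genes most like Igf2 in CB had low correlations, led by Trib2 (0.30), followed by Ftl1-ps2, C9orf72, B230219D22Rik and Mpv17 (0.25 to 0.26).

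**Figure D3:**
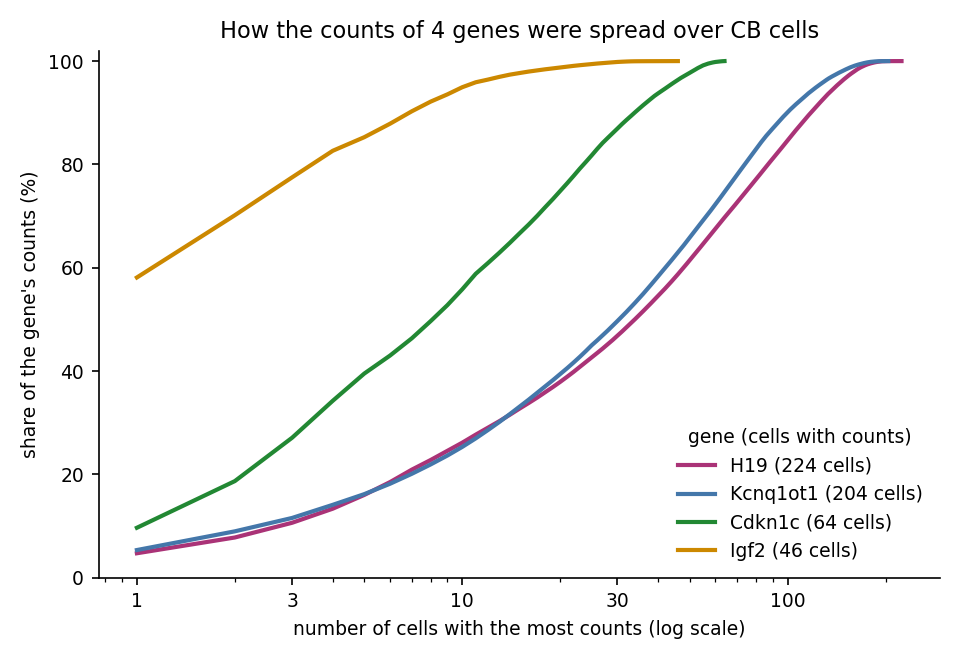
The lines give the share of a gene's CB counts (%) held by the cells with the most counts, against the number of cells on a log axis. The 10 richest cells held 94.9% of Igf2 and 55.8% of Cdkn1c, but 26.2% of H19 and 25.3% of Kcnq1ot1.

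Joint detection of H19 and Igf2 says little in CB, where almost every cell had H19. There, 45 of 232 cells had both (19.4%, interval 14.5 to 25.1%), where the product of the shares was 19.1%. H19 was detected in 97.8% of the CB cells with Igf2 and in 96.2% of those without. In CPCC, 9 of 175 cells had both (5.14%, 2.38 to 9.54%) and the product was 3.74%. H19 was found in 81.8% of the 11 CPCC cells with Igf2 (48.2 to 97.7%) and in 57.9% of those without (49.98 to 65.6%). Within pool 1, which held 9 of the 11, the shares were 77.8% and 40.0%, with intervals of 40.0 to 97.2% and 28.5 to 52.4%. In mESC 0 of 215 cells had both, which allows a share of up to 1.40%. The correlation of H19 with Igf2 was 0.32 and 0.01 in CPCC pools 1 and 2, and -0.18, 0.16 and 0.12 in the 3 CB pools.

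Kcnq1ot1 was detected in most cells of every culture, and its level was higher in CB. It was detected in 93.0% of mESC (200 cells), 88.0% of CPCC cells (154) and 87.9% of CB cells (204), and in 94.8%, 87.3% and 88.6% of thinned cells. The level was 107 CPM in mESC, 105 in CPCC and 265 in CB. By pool it was 82.8, 112 and 125 CPM in mESC, 82.2 and 126 in CPCC, and 229, 377 and 178 in CB. All CB pools lay above all pools of the other cultures, while those of mESC and CPCC overlapped. The part of the markers that separate the CB pools in these levels was not tested. CB was 2.48-fold above mESC and 2.53-fold above CPCC, with log2 ratios of 1.30 and 1.33, and CPCC over mESC gave -0.03, with no direction to read. The ratios for CB were 1.11 and 1.13 with TMM scaling, and 0.85 and 0.88 without CB pool 2, under the mark of 2-fold. Per kb of exon the level stayed low, at 1.15, 1.13 and 2.85 CPM, because the annotated exon is 93.1 kb long.

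Among the cells with counts, the median of Kcnq1ot1 was 71.8 CPM in mESC, 59.2 in CPCC and 181 in CB. The counts were spread over many CB cells, with 31 cells holding 50%. In CPCC 1 cell of pool 2 held 17.8% of the counts, at 5020 CPM, and its macrophage markers summed to 2421 CPM. CB cells with the proliferation gene Mki67 held 307 CPM of Kcnq1ot1 and were positive in 85 of 88, and the others held 237 CPM and were positive in 119 of 144. Of these 88 cells, 54 lay in pool 2, the pool with the most Kcnq1ot1, and within pools the split had no common direction, with 253 and 209 CPM in pool 1, 347 and 459 in pool 2, and 94.1 and 186 in pool 3. The correlations with the summed cell cycle markers were 0.21, -0.01 and -0.05 in the 3 pools. The genes most like it in CB were Arid4b (0.28), Phf20l1 (0.25), Ssh1 (0.25), Smc2 (0.23) and Clmp (0.23), all weak.

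Cdkn1c was higher at each step from mESC to CPCC to CB. The level was 0.296 CPM in mESC (0.242 to 0.359), 3.67 CPM in CPCC (3.45 to 3.90) and 34.4 CPM in CB (33.8 to 35.1). By pool it was 0.679, 0.015 and 0.261 CPM in mESC, 4.74 and 2.67 in CPCC, and 39.0, 6.39 and 58.2 in CB. These pools did not overlap between cultures, though single cells carried much of some levels. A cell held 76.6% of the counts of CPCC pool 2. Without it that pool had 0.632 CPM, under mESC pool 1 with all its cells. Without its richest cell CB pool 2 had 4.68 CPM, under CPCC pool 1 with all its cells. With the richest cell of every pool left out, the mESC levels were 0.431, 0 and 0.0099 CPM. Those of CPCC were then 4.31 and 0.632, those of CB 26.3, 4.68 and 51.0, and the cultures again did not overlap. The part of the make-up of the CB pools in these levels was not tested. The log2 ratio was 1.85 for CPCC over mESC, 4.77 for CB over mESC and 2.92 for CB over CPCC. Cdkn1c was detected in 3.72% of mESC (8 cells), 23.4% of CPCC cells (41, interval 17.4 to 30.4%) and 27.6% of CB cells (64, 21.9 to 33.8%). The CPCC share was 37.97% in pool 1, above the share of all CB cells, and 11.5% in pool 2, so the order of CPCC and CB by share rests on the pool. Among cells with counts the median was 13.1 CPM in mESC, 9.58 in CPCC and 65.6 in CB. Without the richest cell the level of the whole CPCC sample was 2.63 CPM.

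Detection of Cdkn1c was set beside single markers in CPCC and CB. In CPCC it was detected in 38 of 111 cells with the pluripotency gene Nanog and 3 of 64 without, at 5.81 and 0.58 CPM. Within pool 1 these counts were 28 of 65 and 2 of 14, and within pool 2 they were 10 of 46 and 1 of 50. The summed pluripotency markers showed less of this, with correlations of 0.03 and 0.25 in pools 1 and 2, and the richest cell had 6.79 CPM of pluripotency, 7436 of smooth muscle and 5982 of epithelial markers. With Col1a1 the CPCC counts were 6 of 17 cells with it and 24 of 62 without in pool 1, and 3 of 47 and 8 of 49 in pool 2, with correlations of -0.03 and -0.11 with the summed fibroblast markers. It was also detected in 39 of 136 CPCC cells with Mki67 and 2 of 39 without. In CB it was detected in 53 of 149 cells with Col1a1 (50.7 CPM) and 11 of 83 without (7.16 CPM), in the same direction in pool 1 (18 of 60 and 1 of 9), pool 2 (2 of 12 and 9 of 66, 16.7% and 13.6%) and pool 3 (33 of 77 and 1 of 8). The correlations with the summed fibroblast markers had no common direction, at 0.13, -0.08 and 0.41 in the 3 CB pools. CB cells with Cdkn1c were deeper than those without in pool 1 (medians of 1297609 and 700437 counts) and pool 3 (1716482 and 1567776). In pool 2 they were shallower (1571348 and 1781351), and the part of depth was not tested. With Nanog the CB counts were 3 of 14 and 61 of 218. CB cells with Epcam held 12.1 CPM and those without 51.0 CPM, but in pool 2 the order was the other way, at 11.0 and 2.998 CPM. In pool 2, which held 17 of the 19 cells with Afp, Cdkn1c was detected in 1 of 17 cells with Afp and 10 of 61 without. The genes most like it in CB were Ccdc88a (0.33), Ptprd (0.32), Lgals1 (0.30), Gulp1 (0.30) and Gem (0.29).

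Phlda2 was highest in CPCC and rested there on pool 1. The level was 3.31 CPM in mESC (3.12 to 3.50), 17.0 CPM in CPCC (16.5 to 17.5) and 3.39 CPM in CB (3.19 to 3.59). By pool it was 2.29, 3.14 and 4.62 CPM in mESC, 32.6 and 2.41 in CPCC, and 0.064, 2.48 and 5.65 in CB. CPCC pool 1 was above all other pools and CPCC pool 2 was within their range. The log2 ratio was 2.06 for CPCC over mESC and -2.04 for CB over CPCC. Without CPCC pool 1 these ratios were -0.34 and 0.36, so the direction rested on that pool. CB over mESC gave 0.03, and -0.12 with TMM scaling. Phlda2 was detected in 22.3% of mESC (48 cells), 39.4% of CPCC cells (69, interval 32.1 to 47.1%) and 6.03% of CB cells (14, 3.34 to 9.92%), and in 68.4% and 15.6% of the cells of CPCC pools 1 and 2.

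The CPCC cells with Phlda2 were mostly cells with Nanog, and all of them had Epcam. It was detected in 64 of 111 cells with Nanog (57.7%, 28.0 CPM) and 5 of 64 without (1.10 CPM). Within pool 1 the counts were 51 of 65 and 3 of 14, and within pool 2 they were 13 of 46 and 2 of 50. All 69 cells with Phlda2 also had Epcam, and 0 of 51 cells without Epcam had Phlda2, which allows a share of up to 5.88%. It was found in 67 of 136 cells with Mki67 and 2 of 39 without. Across cells its correlation with the summed pluripotency markers was 0.41 and 0.44 in pools 1 and 2, with cell cycle markers 0.36 and 0.40, and with fibroblast markers -0.48 and -0.33. With the summed epithelial markers, the list that holds Epcam, it was -0.32 in pool 1 and 0.34 in pool 2. Cells with Nanog made up 65 of 79 cells in pool 1 and 46 of 96 in pool 2. The share with Phlda2 among them was 78.5% in pool 1 and 28.3% in pool 2, so the pools differed also within the cells with Nanog. The part of the pools' make-up in the level of Phlda2 was not tested. The genes most like Phlda2 over 174 CPCC cells and 12072 genes were Gm9788 (0.55), Zscan10 (0.54), Cenpm (0.54), Zfp936 (0.53) and Polr2f (0.53). Zscan10 is known as a factor of embryonic stem cells and Cenpm encodes a centromere protein.

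**Figure D4:**
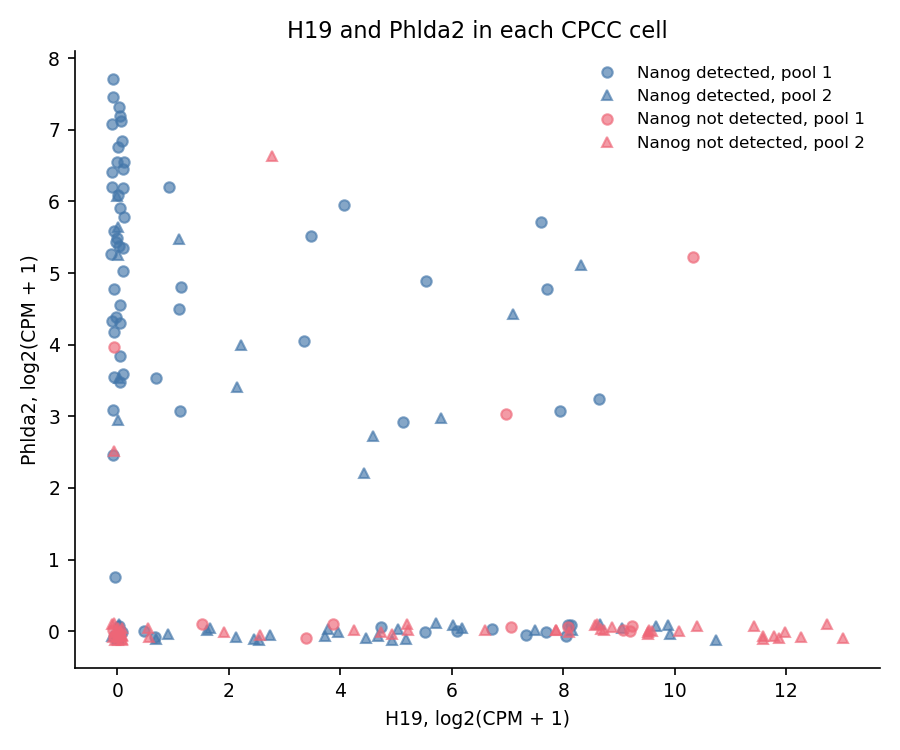
Each point is 1 of the 175 CPCC cells, with H19 and Phlda2 as log2(CPM + 1) on the axes, a small random shift, shape for the pool and colour for detection of Nanog. Most cells lie along an axis, 25 cells had both genes, and 64 of the 69 cells with Phlda2 had Nanog.

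H19 and Phlda2 tended to lie in different CPCC cells. Both were detected in 25 of 175 cells (14.3%, interval 9.46 to 20.4%), where the product of the shares was 23.4%. H19 was found in 36.2% of the cells with Phlda2 and 74.5% of those without. Within pool 1 the shares of H19 were 29.6% and 76.0%, and within pool 2 they were 60.0% and 74.1%. The correlations were -0.51 and -0.21. Cdkn1c and Phlda2, in contrast, were detected together in 29 cells (16.6%, 11.4 to 22.9%), against a product of 9.24%. The excess was smaller within pool 1, at 29.1% and 26.0%, and in pool 2 the values were 6.25% and 1.79%. Cells with Phlda2 were shallower than those without it in both pools, with medians of 1494580 and 1777630 counts per cell in pool 1 and 759893 and 1174464 in pool 2. The same held for Cdkn1c, at 1585095 and 1631467 in pool 1 and 665973 and 1124361 in pool 2. The part of depth in these pairings was not tested.

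Slc22a18 was close to the limit of detection in every culture. The level was 0.809 CPM in mESC (0.717 to 0.908), 0.072 CPM in CPCC (0.044 to 0.112) and 0.494 CPM in CB (0.422 to 0.575), from 284, 20 and 167 counts. It was detected in 6, 4 and 7 cells, or 2.79%, 2.29% and 3.02%, and a single cell held 52.5%, 55.0% and 39.5% of the counts. By pool it was 0.733, 0.386 and 1.45 CPM in mESC, 0.097 and 0.049 in CPCC, and 0.417, 0.015 and 0.966 in CB. The CPCC pools lay under all mESC pools, and the CB pools overlapped with both, but this order rests on single cells. A single cell held all counts of mESC pool 2 and 99.3% of those of pool 3, and without the richest cell of each pool the mESC levels were 0.374, 0 and 0.011 CPM and the CPCC levels 0.015 and 0.014. The log2 ratio of CPCC over mESC was -0.75, below 0 in all 6 pairs of pools and -0.43 without the richest cell of each culture. The other ratios were -0.28 for CB over mESC and 0.48 for CB over CPCC. The genes most like it in mESC were Ank3, Nek8, Six4, Ubn1 and Gm14388, from 6 cells with counts, and nothing is read from that.

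The order of the 6 genes within a culture is given per kb of exon. In mESC Phlda2 led with 2.95 CPM per kb, followed by Kcnq1ot1 at 1.15, and H19 (0.050) and Igf2 (0.006) were last. In CPCC H19 led with 148 CPM per kb, followed by Phlda2 (15.2), Cdkn1c (1.80), Kcnq1ot1 (1.13), Igf2 (0.304) and Slc22a18 (0.043). In CB H19 had 1079 CPM per kb, followed by Igf2 (22.5), Cdkn1c (16.9), Phlda2 (3.02), Kcnq1ot1 (2.85) and Slc22a18 (0.291). Only part of these orders held within pools. In mESC pool 2 Cdkn1c (0.007) was under H19 (0.027). In CPCC pool 1 H19 and Phlda2 were close (29.96 and 29.06), and in pool 2 Kcnq1ot1 (1.35) was above Cdkn1c (1.31) and Slc22a18 (0.029) above Igf2 (0.013). In CB, Cdkn1c was above Igf2 in pools 1 and 2 (19.1 and 7.40, and 3.13 and 0.54 CPM per kb). Kcnq1ot1 was above Phlda2 in the same pools (2.45 and 0.057, and 4.05 and 2.22). In CB pool 2 Kcnq1ot1 was also above Cdkn1c, and Phlda2 above Igf2, and in CB pool 1 Slc22a18 (0.245) was above Phlda2. Before division by length, Igf2 had 54.4 CPM in CB without its richest cell, against 129 with it. Phlda2 had 2.26 CPM without its richest cell, against 3.39 with it. A cell with 3 or more of the 6 genes was rare in mESC, at 6 cells (2.79%), and more frequent in CPCC, at 55 cells (31.4%), and in CB, at 93 cells (40.1%). No cell had all 6.

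Set beside all genes, with a 2-fold ratio of (CPM + 1) as the mark, 4 of the 6 genes were higher and 0 lower in CPCC than in mESC (H19, Igf2, Cdkn1c and Phlda2). Without CPCC pool 1 only H19 and Cdkn1c of these were, with Igf2 at 0.05 and Phlda2 at -0.34, and without the richest cells Igf2 fell under the mark (0.76). Of the 20272 genes listed in both tables, 13.4% were at least 2-fold higher and 6.38% lower. For CB over mESC 4 of 6 were higher (H19, Igf2, Cdkn1c and Kcnq1ot1) and 0 lower, beside 24.9% and 11.3% of 19855 genes. For CB over CPCC the same 4 were higher and Phlda2 was lower, beside 17.0% and 7.54% of 20995 genes. Without CB pool 2 Kcnq1ot1 fell under the mark in both (0.85 over mESC and 0.88 over CPCC), and without CPCC pool 1 Phlda2 was at 0.36 for CB over CPCC. The median log2 ratio of the 6 genes was 1.63, 3.04 and 2.10 for the 3 pairs, and that of all genes -0.02, 0.13 and 0.14. The comparisons share samples and are not independent.

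**Figure D5:**
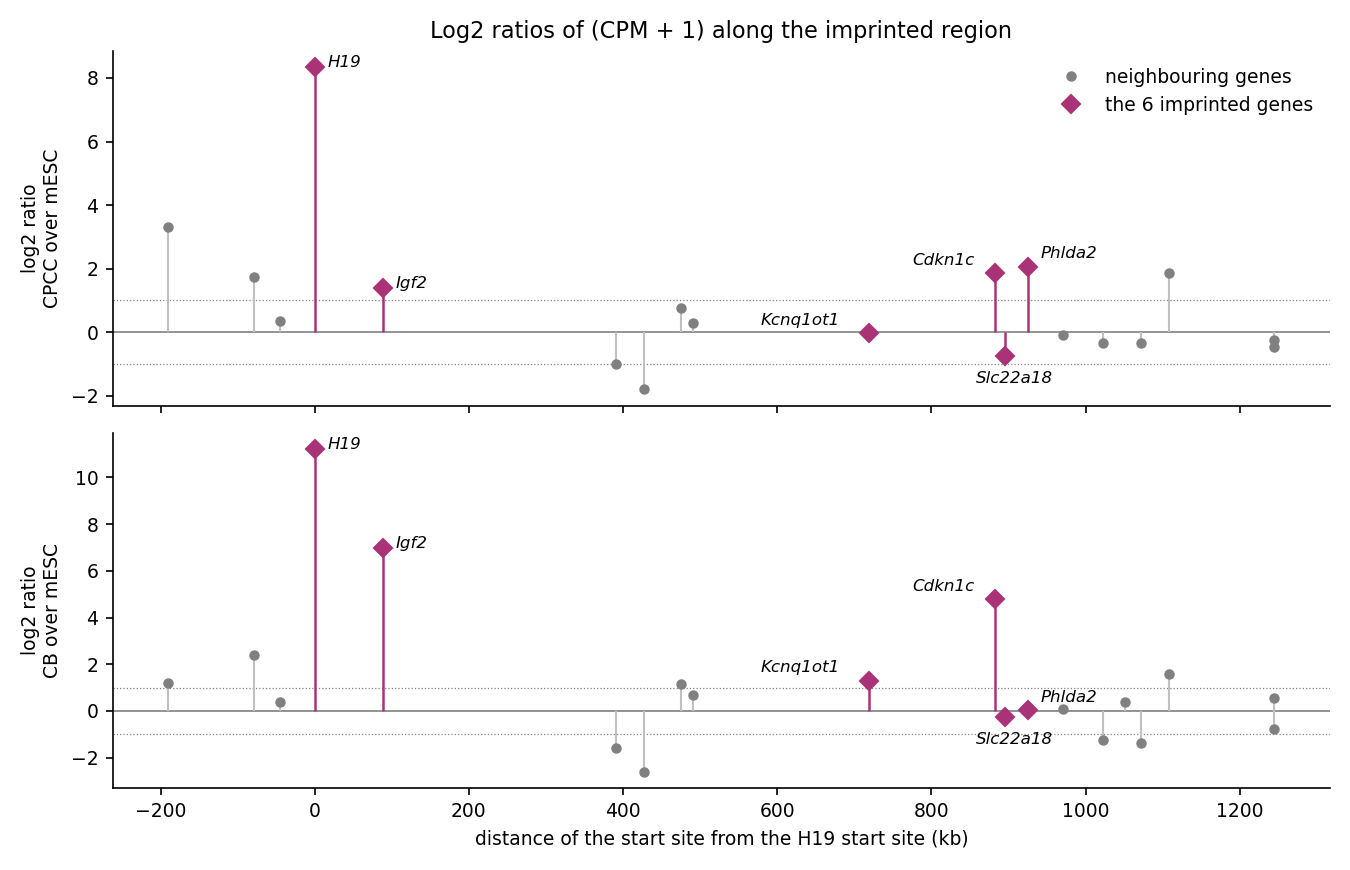
Log2 ratios of (CPM + 1) for CPCC over mESC and CB over mESC against the distance of each start site from that of H19 (kb), for the 6 imprinted genes (diamonds) and neighbouring genes (circles), with dotted lines at 2-fold. H19 (8.35 and 11.21) stands above all other genes shown, and most neighbours lie between -2 and 2.

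Neighbouring genes of the region had ratios on both sides of 0. The list of neighbours held 26 genes, of which 14, 17 and 20 were listed in mESC, CPCC and CB. For CB over mESC, 4 of 14 were at least 2-fold higher and 4 lower, with a median of 0.39, beside 24.9% and 11.3% of all genes. For CPCC over mESC they were 3 and 1 of 13 (median -0.07), beside 13.4% and 6.38%, and for CB over CPCC 3 and 2 of 17 (median 0.17), beside 17.0% and 7.54%. The highest of CB over mESC were Tnnt3, the fast skeletal troponin T gene 79.3 kb from the H19 start, with 0.07 CPM in mESC and 4.73 in CB (2.41), and Tnfrsf23 (1.60), with CB pools from 1.17 to 19.3 CPM around mESC pools of 2.81 to 2.87. The lowest were Tspan32 (-2.60) and Ascl2 (-1.60), a transcription factor of the trophoblast known to be imprinted, with 5.45 CPM in mESC (pools 1.57 to 8.26) and 1.13 in CB (pools 0 to 2.32). Nap1l4, 971 kb from the H19 start, had 62.8, 59.6 and 66.9 CPM in the 3 cultures.

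Of 15 genes of the insulin-like growth factor axis listed in both tables, 10 were at least 2-fold higher in CB than in mESC and 2 lower (median 2.39), beside 24.9% and 11.3% of all genes. For CPCC over mESC 8 of 15 were higher and 1 lower (median 1.19), beside 13.4% and 6.38%, and for CB over CPCC 8 of 16 were higher and 0 lower (median 0.96), beside 17.0% and 7.54%. All genes were thus also more often higher than lower in these 3 comparisons. Igf1, the related ligand, had 0.10 CPM in mESC, 92.3 in CPCC and 304 in CB, and its CPCC pools ran from 1.04 to 178. Igfbp5, a binding protein, had 0.53, 11.5 and 358 CPM. Igf2r, the imprinted receptor that clears Igf2, had 19.6, 3.10 and 6.66 CPM, and Igf2bp1, an RNA-binding protein, had 110, 96.0 and 50.9, with CB pools from 7.73 to 114.

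The imprinted genes of other regions are read against the same shares of all genes. For CB over mESC 20 of 28 were at least 2-fold higher and 3 lower (median 2.94), beside 24.9% and 11.3% of all genes. For CPCC over mESC 17 of 29 were higher and 4 lower (median 1.12), beside 13.4% and 6.38%. For CB over CPCC 15 of 28 were higher and 1 lower (median 1.09), beside 17.0% and 7.54%. Nnat, a membrane proteolipid gene, had 0.05, 61.7 and 284 CPM in mESC, CPCC and CB, and Dlk1, a Notch-related growth regulator, had 1.94, 4.16 and 161, with CB pools from 12.9 to 769. The lowest were Grb10 (11.8, 3.91 and 1.61 CPM), an adaptor that dampens growth signalling, and its neighbour Cobl (67.9, 12.7 and 16.6).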

How the data were processed

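The submitters' processing notes name STAR 2.7 and mm10, and the study's methods place the alignment in Partek Flow. Single cells were caught on Fluidigm C1 chips, and SMART-Seq cDNA of polyadenylated RNA was indexed with Nextera XT. The authors deposited 1 table of estimated counts (expected counts) per culture, not scaled, with a column per cell. Of the values above 0, 32.0% in mESC, 0% in CPCC and 34.6% in CB were not whole (exactly), so the CPCC table was rounded or counted otherwise, and ratios against CPCC also compare these treatments. Each table lists only genes whose highest value reached 1. Unlisted genes were not set to 0. In CPCC, 208 rows without a gene and 23 symbols turned into dates (0.139% of counts) and 2 unmapped columns were left out. No column name was shared between tables and 0 cells were identical.

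Counts were summed per culture or pool and scaled to CPM. Ratios need a gene to be present in both tables of a pair. With 1 sample per group no test was made. Intervals are exact Poisson (levels) and Clopper-Pearson (shares) at 95%. The limit for a share of 0 is 3 counts of the total. Correlations are Spearman rho on log2(CPM + 1) within pools, over cells with at least 10000 counts. Values were rounded for thinning and for the scaling factors of edgeR 4.0.16 (TMM) and DESeq2 1.42.0 (R 4.3.3), which served only as alternatives, tested on simulated data. Other steps used Python 3.11.15, numpy 2.4.6, pandas 2.3.3, scipy 1.17.1 and matplotlib 3.10.9. No cells were removed from levels and shares, and no doublet caller was run.

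The 6 genes, the 10 marker lists and the 5 lists of companion genes were chosen with earlier results of these data known. All 6 genes are named. By rule, the text also names the 5 genes most like each, in the culture where it is highest, among genes detected in at least 25% of cells and with a positive rho in every pool. Of each companion list it names the 2 highest and 2 lowest ratios of CB over mESC. Nap1l4, Kcnq1 and the single markers were chosen after their values were seen.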

Additional observations from a re-analysis of the deposited data

How the results depend on the processing

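The median log2 ratio of the 6 genes for CPCC over mESC (1.63) was 2.79 with a pseudocount of 0.1 CPM, 0.32 with 10 CPM, 0.14 to 2.13 without a pool and 1.17 without the cell with the most counts of each gene in each culture, an alternative chosen after seeing the data. For CB over mESC (3.04) it was 2.87 with TMM, 2.84 with DESeq2 size factors, 2.80 as a mean over equally weighted cells, 3.88 and 1.67 with pseudocounts of 0.1 and 10 CPM, 3.12 when mitochondrial genes and the 20 most abundant were dropped, and 2.698 to 3.11 without a pool. For CB over CPCC (2.10) it was 1.89, 1.90, 1.92, 2.32 and 1.48 in the same order of the first 5 alternatives, 1.56 to 2.15 without a pool and 2.32 without the richest cells. The share of cells with H19 and Igf2 was 2.08 to 8.86% in CPCC and 11.6 to 23.4% in CB without a pool, and 13.4% in CB at 5 or more counts. Of 13 ratios of at least 2-fold, 11 kept their sign under every alternative, and the 2 others were those of Phlda2, at -0.34 for CPCC over mESC and 0.36 for CB over CPCC without CPCC pool 1 (2.96 and -2.94 without CPCC pool 2). With a pseudocount of 10 CPM the ratios of CPCC over mESC fell under 2-fold for Igf2 (0.23) and Cdkn1c (0.41). Without a pool Igf2 ranged from 0.05 to 2.12 for CPCC over mESC and from 2.61 to 6.91 for CB over CPCC, and H19 from 6.06 to 9.15 for CPCC over mESC. The causes were not tested. Among genes with at least 1 CPM on average, the median log2 ratio was 0.27 for CB over mESC (0.09 with TMM) and 0.21 for CB over CPCC (0.02 with TMM). Of the 5 genes named as most like each gene, those found again under either of 2 alternatives numbered 1 for Phlda2, 1 to 3 for Cdkn1c and Kcnq1ot1, 2 to 3 for Igf2, 2 to 4 for H19 and 3 to 4 for Slc22a18. No paired analysis was possible because there was 1 sample per group. Fewer than 10 mESC carried H19, Igf2, Cdkn1c or Slc22a18, and fewer than 10 CPCC and CB cells carried Slc22a18, which limits what their shares and levels can show.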

Other observations

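The other cyclin-dependent kinase inhibitors are given beside Cdkn1c. Of 6 genes, 3 were at least 2-fold higher and 0 lower in CB than in mESC (median log2 ratio 0.90), beside 24.9% and 11.3% of all genes. In CPCC 1 was higher and 0 lower than in mESC (median 0.58), beside 13.4% and 6.38%, and 1 was higher and 1 lower in CB than in CPCC (median -0.01), beside 17.0% and 7.54%. Cdkn1b had 1.32, 2.16 and 11.3 CPM in mESC, CPCC and CB (2.40 for CB over mESC), and Cdkn2b had 6.05, 73.3 and 30.6 CPM (2.16, and 3.40 for CPCC over mESC, where Cdkn1c had 1.85). The CB pools of Cdkn2b ran from 2.43 to 51.6 CPM, and the lowest was under every mESC pool (4.45 to 7.29). The lowest ratios were those of Cdkn2a (-0.25) and Cdkn2d (-0.19).

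A list of 12 genes of imprint upkeep and DNA methylation, which also holds Tet1 and Tet2, enzymes that start the removal of methylation, was read against all genes. For CB over mESC 2 of 11 were at least 2-fold higher and 7 lower (median -1.72), beside 24.9% and 11.3% of all genes. For CPCC over mESC 3 of 12 were higher and 4 lower (median -0.77), beside 13.4% and 6.38%, and for CB over CPCC 1 of 11 higher and 5 lower (median -0.93), beside 17.0% and 7.54%. Zfp57, the zinc finger protein that protects germline imprints, had 119 CPM in mESC, 62.6 in CPCC and 16.1 in CB. Dnmt3l, a cofactor of de novo methylation, had 24.3, 153 and 0.25 CPM, with CPCC pools at 32.5 and 282 and mESC pools from 12.4 to 48.6. Zfp445, which shares the role of Zfp57, had 37.9, 51.0 and 105 CPM, and Dnmt3a, a de novo methyltransferase, had 17.7, 63.7 and 67.1.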
